A study of Homo sapiens with 5 samples.

Results

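The low-methylated distal windows are stretches of 1000 bases that a deposited table places outside CpG islands and promoters and that had a mean DNA methylation below 50% in human induced pluripotent stem cells (iPSCs). They were chosen from a table of reduced representation bisulfite sequencing (RRBS) as the autosomal windows outside CpG islands, shores and shelves that the table places in intergenic sequence, in introns or 1 to 5 kb upstream of a gene, with a coverage of at least 100 cytosine calls in all 5 libraries and a mean β-value below 50%. The β-value is the share of CpG calls in a window that were read as methylated, given here in percent. Of 288391 windows in the table, 152714 were autosomal and distal in this sense, 122895 of these had the coverage, and 2793 had a mean β-value below 50%. The set therefore makes up 2.27% of the covered distal windows. The mean β-value over all 5 libraries chose the windows, so the levels below describe the set and are not tested.

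The cells were the established iPSC line 201B7 (HPS0063), grown without feeder cells, and every library came from this single line. The labels give the genotype as WT, while the chemical screen of the study used cells of the line with an mCherry-MBD-nls reporter, and which of these the RRBS libraries came from is not settled by the sources used here. They were exposed for 48 h to 0.1% DMSO as the vehicle control or to 1 of 4 chemicals, 1 library each. The doses were 10 nM for 5-aza-dc, 1 nM for etoposide and 1 µM both for theophylline and for propyl gallate. Etoposide is an inhibitor of topoisomerase II, propyl gallate is an antioxidant food additive, theophylline is a methylxanthine, and 5-aza-dc (5-aza-2′-deoxycytidine) is a cytidine analogue that traps DNA methyltransferases. The study asked whether chemicals that had altered a fluorescent reporter of methylated DNA in iPSCs also altered methylation measured by sequencing. No condition was replicated, so differences between libraries cannot be told apart from variation between cultures, extractions and library preparations. All 4 chemicals share 1 vehicle library.

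In mammalian cells most CpG sites outside CpG islands are methylated, and stretches of low methylation far from islands are often places where transcription factors bind, as at enhancers and at promoters with few CpG sites. Enhancers of pluripotency genes belong to this class in stem cells. RRBS cuts DNA at CCGG sites and sequences the short fragments, so it covers CpG-poor sequence only in patches. No chromatin mark or accessibility was measured, so whether a window is an enhancer could not be examined, and the windows are called here by their methylation and position.

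The windows were annotated as intergenic in 1985 cases (71.1%), intronic in 606 (21.7%) and 1 to 5 kb upstream of a gene in 202 (7.23%), while the covered distal windows with a mean of at least 50% were divided as 69.5%, 24.4% and 6.14%. No gene symbol was attached to 883 of the 2793, and the others carried 1555 different symbols. A window is called near a gene where the table assigned it to that gene, whatever the distance. Part of the set stood at positions where RefSeq (GRCh38.p14) lists the start of a gene, which goes against the distal annotation of the table. Starts were listed for all autosomes except chromosome 8, which left 2666 of the windows to examine. A RefSeq start lay inside 122 of them (4.58%), and inside 416 of 114504 other covered distal windows (0.363%). The share fell with the methylation level, from 38 of 194 windows with a mean β-value under 2% (19.6%) to 19 of 1022 between 30% and 50% (1.86%). Within 1000 bases of a start lay 209 windows (7.84%), and 1943 (72.9%) were more than 10000 bases from one. The set is therefore a mixture in which the lowest windows hold unannotated gene starts most often.

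Coding genes accounted for 86 of these starts. In the 250 bases upstream of them the median number of CG dinucleotides was 11, against 5 upstream of the 146 coding starts in other distal windows and 17 upstream of all 21156 coding starts listed on the same chromosomes. At least 10 CG dinucleotides were present upstream of 46 of the 86 (53.5%), of 20 of the 146 (13.7%) and of 13921 of the 21156 (65.8%). The CG pair reads the same on both strands. Of the coding starts, 59 genes had all 250 upstream bases inside the window, and 15 windows remained when these bases had to lie in no listed gene. The 3 with the lowest and the 3 with the highest methylation are shown from RefSeq (GRCh38.p14), 5′ to 3′ and ending at the base before the start, to let the CpG content of the least methylated windows be seen beside that of more methylated ones. Capitals mark CG dinucleotides.
PSTK, chr10:122980151-122980400, + strand: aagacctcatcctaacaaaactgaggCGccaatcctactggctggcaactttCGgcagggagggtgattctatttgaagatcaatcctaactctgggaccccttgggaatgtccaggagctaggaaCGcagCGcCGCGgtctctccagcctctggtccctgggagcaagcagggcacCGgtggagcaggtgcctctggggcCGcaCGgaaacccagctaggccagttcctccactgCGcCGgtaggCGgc
ATOX1, chr5:151758632-151758881, - strand: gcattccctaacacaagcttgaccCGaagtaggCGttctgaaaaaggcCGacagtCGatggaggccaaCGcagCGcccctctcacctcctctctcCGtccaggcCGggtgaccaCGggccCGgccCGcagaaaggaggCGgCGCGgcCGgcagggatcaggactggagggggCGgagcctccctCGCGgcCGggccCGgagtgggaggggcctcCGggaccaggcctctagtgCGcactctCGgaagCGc
MTPAP, chr10:30349279-30349528, - strand: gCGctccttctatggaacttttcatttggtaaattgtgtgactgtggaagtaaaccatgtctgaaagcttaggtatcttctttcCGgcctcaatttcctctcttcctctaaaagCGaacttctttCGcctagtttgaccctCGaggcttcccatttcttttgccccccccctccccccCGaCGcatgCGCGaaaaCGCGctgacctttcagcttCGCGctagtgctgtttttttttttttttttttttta
SLC4A10, chr2:161624166-161624415, + strand: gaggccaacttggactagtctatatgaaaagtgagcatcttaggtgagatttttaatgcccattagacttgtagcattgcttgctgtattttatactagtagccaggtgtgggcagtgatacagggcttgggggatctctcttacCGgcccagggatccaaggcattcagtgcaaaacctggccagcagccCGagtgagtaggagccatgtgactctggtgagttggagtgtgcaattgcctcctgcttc
HSPB8, chr12:119178681-119178930, + strand: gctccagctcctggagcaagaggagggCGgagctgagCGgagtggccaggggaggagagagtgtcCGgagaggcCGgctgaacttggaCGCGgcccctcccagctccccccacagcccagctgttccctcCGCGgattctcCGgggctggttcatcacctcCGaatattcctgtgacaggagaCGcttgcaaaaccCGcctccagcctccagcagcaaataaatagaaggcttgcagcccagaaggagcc
BBS1, chr11:66510385-66510634, + strand: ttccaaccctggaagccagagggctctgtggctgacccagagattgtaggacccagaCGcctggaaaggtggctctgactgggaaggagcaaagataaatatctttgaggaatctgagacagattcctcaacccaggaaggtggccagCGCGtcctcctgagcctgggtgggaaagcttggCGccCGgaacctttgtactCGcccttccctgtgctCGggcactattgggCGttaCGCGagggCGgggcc

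The PSTK window (chr10:122980001-122981000) had 12 CG dinucleotides in the upstream bases and β-values of 0.918% in the vehicle control, 0.430% with etoposide, 0.136% with propyl gallate, 0.427% with theophylline and 1.15% with 5-aza-dc. The table assigned it to IKZF5, a zinc finger gene whose start it placed 27812 bases away. PSTK encodes a kinase of selenocysteine tRNA. The window at ATOX1, which encodes a copper chaperone, had 24 CG dinucleotides and a mean β-value of 0.756%, and that at MTPAP, a mitochondrial poly(A) polymerase gene, had 13 and a mean of 0.933%. The window at SLC4A10, a bicarbonate transporter gene, had 2 CG dinucleotides and a mean of 6.83%. HSPB8, a small heat shock protein gene, had 12 with a mean of 17.5%, and BBS1, a Bardet-Biedl syndrome gene, had 11 with a mean of 27.8%. The BBS1 window read 24.5% in the vehicle control, 32.5% with etoposide, 33.3% with propyl gallate, 25.9% with theophylline and 22.9% with 5-aza-dc, at 2075 to 2575 calls. Low methylation was thus present at starts with few and with many CG dinucleotides.

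Transfer RNA genes were the other annotated class in the set. Of 25 covered distal windows with a tRNA gene in RefSeq, 15 (60%) were low-methylated, and 10 of the 15 lay on chromosome 6 between positions 26305001 and 28882000. The window with the serine tRNA gene TRS-TGA2-1 (chr6:27545001-27546000) had β-values of 0.836% in the vehicle control, 0.646% with etoposide, 0.911% with propyl gallate, 1.36% with theophylline and 1.51% with 5-aza-dc. Of the 15, 13 had a mean below 10%, and the window with TRK-TTT6-1 was the most methylated at 47.9%. A miRNA gene lay in 2 windows of the set (0.0716%) and in 9 of the other covered distal windows (0.00749%), and a snoRNA gene in 1 (0.0358%) and in 21 (0.0175%).

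The methylation levels were spread over the whole range below the limit. Under 2% lay 202 windows (7.23%), between 2% and 10% 633 (22.7%), between 10% and 30% 884 (31.7%) and between 30% and 50% 1074 (38.5%). The lowest was the window nearest to RNA5SP272 (chr8:88386001-88387000), in which none of 206 calls in the vehicle control, 125 with etoposide, 206 with propyl gallate, 133 with theophylline and 147 with 5-aza-dc was methylated, which allows a β-value of up to 1.46% in the vehicle control and 2.40% with etoposide. Calls of 1 read or of its PCR copies are not independent, so these limits and all intervals given here cover counting error only. Among the 10 lowest windows were introns of AMPD3, which encodes an AMP deaminase, at a mean of 0.275%, and of SOGA1 at 0.332%, and intergenic windows near GNPDA1 (0.275%), a glucosamine-6-phosphate deaminase gene, HSPB7 (0.402%) and CAVIN4 (0.433%), which are muscle-expressed genes. The limit fell in a continuous distribution. Just inside it lay a window on chromosome 7 (chr7:28683001-28684000) at 49.97%, 1 on chromosome 17 (chr17:21600001-21601000) at 49.98% and 1 near a Y_RNA gene on chromosome 21 at 49.99%, and just outside it lay windows in PLLP at 50.01%, near SPATA3-AS1 at 50.04% and on chromosome 15 at 50.04%.

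Of the 2793 windows, 2297 stood alone, 236 pairs adjoined each other and 8 runs held 3 windows. Around the lone windows the median β-value was 25.3% at the centre, 85.4% and 81.9% in the next window on either side and 89.7% and 89.98% at a distance of 2 kb. These windows are the ones with no adjoining window of the set, which fixes in part the levels beside them. The neighbours were often not covered, with both neighbours covered for 271 windows, 1 for 1238 and none for 1284, so the width of the low methylation is unknown for most. Where both were covered, both had at least 50% methylation around 132 windows and both were below 50% around 15. The median distance to an island, shore or shelf window was 23000 bases, against 29000 for the other distal windows.

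Levels within the runs of 3 windows varied. A run near CSRP1 (chr1:201480001-201483000), a LIM domain protein gene, had a mean of 10.4% over the libraries with single windows from 0.856% to 15.8%. The run near OSM, the cytokine oncostatin M, ranged from 4.79% to 43.4% and that near RPL17P15 from 0.613% to 47.1%, so adjoining windows could differ by most of the range of the set. A run near OR6S1 on chromosome 14, with a mean of 7.45%, held the tyrosine tRNA gene TRY-GTA5-3.

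The gene lists are described by their counts, with no test. Of 139 covered distal windows assigned to pluripotency genes, 10 (7.19%) were low-methylated, against 2.27% of all covered distal windows. ESRRB alone held 5 of these 10, the other genes of the list had 5 of 118 (4.24%), and 5 of the 29 genes had any. The share was 13 of 235 (5.53%) for developmental transcription factors, 6 of 266 (2.26%) for FGF, TGF-β and WNT signalling, 4 of 264 (1.52%) for imprinted genes, 2 of 40 (5.00%) for DNA methylation enzymes and 0 of 22 for fibroblast markers. The 0 of 22 allows a share of up to 13.6%. These lists were drawn up with earlier results of the data known.

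ESRRB, a nuclear receptor of the pluripotency network, had 5 low-methylated windows among its 21 covered distal windows, all in introns, which is the most for any gene with a name of its own beside MIR5584 (5 of 17). The window 18289 bases from its start (chr14:76329001-76330000) read 6.45% in the vehicle control, 1.09% with etoposide, 3.54% with propyl gallate, 3.36% with theophylline and 2.22% with 5-aza-dc. The next window (chr14:76330001-76331000) read 57.1%, 53.5%, 47.1%, 31.2% and 50% in the same order, so the theophylline library stood lowest there. A window in the intron of TDGF1, which encodes the NODAL co-receptor CRIPTO, read 6.97% in the vehicle control, 5.75% with etoposide (95% Wilson interval 4.98% to 6.66%), 6.01% with propyl gallate, 8.22% with theophylline (7.30% to 9.23%) and 6.59% with 5-aza-dc, at 2950 to 3696 calls. No chemical library was called against the vehicle control there. Near PODXL, a surface glycoprotein of pluripotent cells, 2 adjoining windows had β-values of 5.00% to 10.6% and of 11.1% to 18.6%. ZFP42 (REX1), a zinc finger marker of pluripotent cells, had 1 window at 29.3% to 41.1%. USP44, a deubiquitinase gene expressed in stem cells, had 1 intronic window (chr12:95526001-95527000) at 23.9% in the vehicle control, 22.4% with etoposide, 1.72% with propyl gallate, 8.39% with theophylline and 6.88% with 5-aza-dc, with 124 to 213 calls.

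Developmental transcription factors had 13 windows. Of the lowest 3, 1 lay 212299 bases from MEIS2, with 1.19% to 4.75%. The others lay in an intron of GLI2, with 3.19% to 7.39%, and 130605 bases from PAX2, with 5.11% to 8.57%. The 3 genes encode a homeobox cofactor, a mediator of Hedgehog signalling and a kidney and eye regulator. The window near FOXA1, a pioneer factor of the endoderm, read 12.9% to 17.6% and that near SOX9, a cartilage and gonad regulator, 20.4% to 25.1%. In the signalling list the lowest were near SFRP1, a WNT antagonist (2.39% to 4.91%), TCF7, a WNT effector (9.19% to 12.6%), and SMAD3, a TGF-β effector (8.07% to 13.9%). The imprinted list had windows assigned to KCNK9, to ZFAT at a distance of 255049 bases, and to IGF2. Those of IGF2 read 15.4% to 19.6% in 1 intergenic window and 43.1% to 47.5% in 1 intron window. Both windows of the DNA methylation enzymes lay in DNMT3A, a de novo methyltransferase, side by side. The first (chr2:25259001-25260000) read 0.585% to 5.17%. Over the second (chr2:25260001-25261000) the vehicle control read 31.2%, etoposide 12.7%, propyl gallate 7.21%, theophylline 28.9% and 5-aza-dc 7.07%, at 102 to 152 calls.

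Across the set, libraries were compared by the mean over windows. The mean β-value of the 2793 windows was 23.6% in the vehicle control, 23.4% with etoposide, 23.5% with propyl gallate, 24.3% with theophylline and 22.05% with 5-aza-dc, at a median of 451 to 558 calls per window. The 5-aza-dc library differed from the vehicle control by -1.55 percentage points (95% counting interval -1.66 to -1.44) and was lower in 1781 windows (63.8%). The theophylline library differed by 0.730 points (0.622 to 0.838) and was higher in 1551 windows (55.5%). For etoposide the difference was -0.194 points (-0.302 to -0.0860), and for propyl gallate -0.104 points (-0.210 to 0.00196), an interval that includes 0. The intervals of this paragraph hold counting error only. They leave out the SD of the difference between windows, 5.24 points for etoposide and 5.10 for propyl gallate, and do not set these chemicals apart. When windows were chosen by the mean of the 3 libraries outside the comparison, the differences were -1.47, 0.728, -0.132 and -0.111 points in the same order. The 120102 other covered distal windows gave -0.969 points with 5-aza-dc, 1.09 with theophylline, 0.623 with etoposide and 0.666 with propyl gallate. The etoposide and propyl gallate libraries thus lay above the vehicle control in the mean of the other distal windows and did not in that of the low-methylated ones. At 50% to 70% the difference was 0.0516 points with etoposide (-0.0901 to 0.193) and 0.270 with propyl gallate (0.131 to 0.409). In the low-methylated windows 1 to 5 kb upstream of a gene it was 0.451 with etoposide (0.0588 to 0.843) and 0.100 with propyl gallate (-0.285 to 0.485).

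The size of the difference depended on the level of the window. With 5-aza-dc it was -0.0942 points under 2%, -0.928 at 2% to 10%, -1.65 at 10% to 30% and -2.11 at 30% to 50%, and in the other distal windows -1.959 at 50% to 70%, -1.46 at 70% to 90% and -0.762 at 90% and over. With theophylline it rose from 0.0416 points under 2% to 1.13 at 30% to 50%. Windows that hold a RefSeq start differed by -0.954 points with 5-aza-dc (SE of counting 0.176), and the 2457 windows with no start within 1000 bases by -1.55 points (0.0603). Their levels were unlike, with a vehicle mean of 12.5% and 24.4%. The 5-aza-dc mean was 92.4% and 93.6% of the vehicle mean. The 5-aza-dc library had the lowest β-value of the 5 in 1018 windows (36.4%) and in 36.3% of the other distal windows, and theophylline had the highest in 760 (27.2%) and in 28.3%.

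Because the difference varied with the level, the set was compared with 2 other classes of windows below 50% in bins of 10 percentage points, weighted by the number of low-methylated distal windows in each bin. These were 2247 windows in CpG island shores and 1739 promoter, exon and untranslated-region windows outside islands. With 5-aza-dc the shores gave -2.55 points and the promoter and gene windows -2.41, against -1.55 in the distal set. The distal windows were less lowered by 0.996 points than the shores (SE of counting 0.0879) and by 0.862 than the promoter and gene windows (0.102). In the bin below 10% the distal windows differed by -0.726 points, the shores by -0.780 and the promoter and gene windows by -0.461 (SE of counting 0.0454, 0.0372 and 0.0300), so there the distal windows were the more lowered beside promoter and gene windows. Between 20% and 30% the 3 values were -1.42, -2.93 and -3.51 in the same order, the widest gap to promoter and gene windows. Between 40% and 50% they were -2.20, -4.19 and -3.04, the widest gap to shores. With theophylline the distal windows were higher than the shores by 0.412 points (0.0875) and than the promoter and gene windows by 0.477 (0.101). For etoposide the gaps were 0.0235 points (0.0876) and -0.112 (0.102), and for propyl gallate -0.0444 (0.0859) and 0.0197 (0.0998), all within counting error. Only 1 pair of libraries stands behind each of these values.

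Single windows varied between libraries by more than counting error gives. The median SD over the 5 libraries was 2.79 points, where counting alone gives 1.71, and the range reached 10 points in 861 windows (30.8%) and 25 points in 31. In the 120102 other covered distal windows the median SD was 2.51 points where counting gives 1.29, and the range reached 10 points in 17.04% and 25 points in 262 windows. Windows were then compared 1 chemical library at a time by Fisher's exact test on the calls, two-sided, with Benjamini-Hochberg adjustment over all 288391 windows, and were called where they differed by 10 points or more with an adjusted p below 0.01. The test compares 2 libraries and not 2 conditions. With 5-aza-dc 125 of the 2793 windows were called lower (4.48%, against 2.76% of all windows) and 32 higher (1.15%, against 0.876%). Theophylline gave 70 higher (2.51%, against 1.59%) and 39 lower (1.396%, against 0.681%). Etoposide gave 52 higher (1.86%, against 1.36%) and 64 lower (2.29%, against 0.956%), and propyl gallate 58 higher (2.08%, against 1.34%) and 55 lower (1.97%, against 0.88%). Shores below 50% were called lower with 5-aza-dc in 4.72% of cases and promoter and gene windows in 4.26%. Distal windows at 50% to 70% were called higher in 1.87% and lower in 8.28% with 5-aza-dc. There the shares higher and lower were 2.38% and 1.68% with theophylline, 2.38% and 2.78% with etoposide, and 2.60% and 2.49% with propyl gallate. Of these shares only that of theophylline higher was below that of the set. At 90% and over 5-aza-dc gave 1.69% lower. A difference of at least 25 points was reached by 1 window higher and 4 lower with etoposide (0.0358% and 0.143%, against 0.0999% and 0.0908% of all windows). Propyl gallate gave 2 and 1 (0.0716% and 0.0358%, against 0.0936% and 0.0832%). With theophylline there were 1 and 1 (0.0358% each, against 0.106% and 0.0694%), and with 5-aza-dc 2 and 4 (0.0716% and 0.143%, against 0.0742% and 0.235%). Only etoposide lower was above the share of all windows, which include windows of lower coverage. In the other covered distal windows each share was below that of the set, from 0.00416% (theophylline lower) to 0.0275% (5-aza-dc lower). In those at 50% to 70% each was above that of the set, from 0.0366% (theophylline lower) to 0.366% (5-aza-dc lower). In all, 2420 windows were called with no chemical, and the matching share over all windows of the table was not worked out. The 5-aza-dc library also held fewer calls in the 125 windows, with a median share of its calls of 0.917 times that in the vehicle control. The share differed by less than 25% in 72 of the 125 (57.6%) and in 61.4% of the whole set, and its part in the result was not tested.

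The widest range of any window was 45.8 points, at an intergenic window 54214 bases from ENSG00000234640 (chr10:128265001-128266000). It read 54.0% in the vehicle control (95% Wilson interval 50.2% to 57.9%), 8.22% with etoposide (4.44% to 14.2%), 31.6% with propyl gallate, 38.2% with theophylline and 32.1% with 5-aza-dc. The etoposide library, with an adjusted p of 3.1e-20 by Fisher's exact test, had 124 calls there and the others 488 to 644. Near RNA5SP274 on chromosome 8 etoposide read 28.4%, the vehicle control 58.3% and theophylline 66.4%. The mean of the 4 libraries other than etoposide was 53.3% there, so the window is in the set only through the low etoposide value, and its fall is a description with no test. In an intron of NPHP4, a nephrocystin gene of the cilium, etoposide read 9.92% against 39.4% in the vehicle control (adjusted p of 1.3e-06, Fisher's exact test). The largest rises with etoposide were near ZPR1P1, from 22.4% to 52.3%, ANAPC10, an anaphase-promoting complex subunit gene, from 19.9% to 42.0%, and ENSG00000252409, from 17.1% to 37.9%. At the ANAPC10 window, 288541 bases from that gene, theophylline read 39.7% as well.

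With propyl gallate the largest rise was 1 to 5 kb upstream of RN7SL619P and 159 bases from a RefSeq start (chr19:13818001-13819000), from 3.09% in the vehicle control (1.78% to 5.33%, Wilson) to 31.9% (28.1% to 35.8%), with an adjusted p of 1.4e-28 by Fisher's exact test. Etoposide read 1.53% there, theophylline 25.6% and 5-aza-dc 25.7%, so the libraries fell into a low pair and 3 high ones. The CRYL1 window, 162873 bases from the gene of a crystallin family enzyme, read 62.2% against 35.7%, and the ENSG00000261273 window 53.0% against 32.8%. The window near ENSG00000279543 (chr18:37394001-37395000) read 32.2% in the vehicle control and 4.32% with etoposide, 5.29% with propyl gallate, 9.03% with theophylline and 7.21% with 5-aza-dc. The vehicle control alone stood apart there, with 115 calls where the other libraries had 373 to 661. Falls with propyl gallate also included a window near KCNA7, a potassium channel gene, from 46.5% to 22.2%, and the DNMT3A window described above (adjusted p of 8.7e-05, Fisher's exact test).

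With theophylline the rises were largest near ENSG00000228923 (39.4% to 69.9%), 694151 bases from CALN1, a calneuron gene (7.59% to 32.2%), and near EI24, an autophagy gene (32.6% to 56.5%). The falls were largest in the ESRRB intron (57.1% to 31.2%) and near ENSG00000235056 (39.7% to 15.5%). Without theophylline the mean at the ESRRB window was 51.9%, so it too is in the set only through the library compared, and its fall is given with no test. At the EI24 window the other 4 libraries read 21.8% to 34.9%.

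The 3 deepest falls with 5-aza-dc were in windows whose other 4 libraries had a mean of 50.9%, 50.5% and 53.0%, so the low 5-aza-dc value itself brought them below the limit and the falls are descriptions with no test. Of the 24 rises and falls named for the 4 chemicals, 5 were of this kind. Near a Y_RNA gene on chromosome 8 (chr8:114006001-114007000) the 5-aza-dc library read 20.8% (17.3% to 24.7%, Wilson) and the others 46.9% to 55.1%. Near ENSG00000251144 it read 23.9% and the others 44.0% to 56.7%, and near ENSG00000274758 33.8% and the others 48.6% to 60.6%. In these 3 windows the 5-aza-dc library had 472, 422 and 196 calls and the vehicle control 858, 1128 and 348. Rises were seen near ENSG00000236366 (35.4% to 63.8%), in an intron of TCOF1, the treacle gene (23.1% to 48.7%), and at the RN7SL619P window.

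Of the windows on the gene lists, 2 of 10 for pluripotency, 4 of 13 for developmental factors and 1 of 2 for DNA methylation enzymes were called with any chemical. For signalling and imprinted genes the counts were 0 of 6 and 0 of 4. In the whole set 13.4% were called. The share over all windows of the table was not worked out, nor was one matched for level. These counts are therefore not read as a result about the lists. The pluripotency windows called were those of USP44 and ESRRB. The ESRRB window is in the set only through its theophylline value, so its call is not read as a result. USP44 was called lower with propyl gallate, theophylline and 5-aza-dc (adjusted p of 7.7e-10, 0.0032 and 0.00011, Fisher's exact test). A window 136556 bases from TBX15, a limb and skeletal T-box factor, was called lower with all 4 chemicals. It read 32.4% in the vehicle control, 17.2% with etoposide, 12.1% with propyl gallate, 13.5% with theophylline and 22.1% with 5-aza-dc. All 4 comparisons share the vehicle library, which was the highest there. A window 346844 bases from RUNX2, the bone regulator, read 42.4% in the vehicle control and 24.1% with 5-aza-dc. Etoposide read 35.4% there, propyl gallate 42.0% and theophylline 32.9%. In introns of PAX7, a muscle and neural crest factor, and of GATA3, a trophoblast and T cell factor, the propyl gallate library was higher, at 51.9% against 34.3% and at 50.5% against 38.0%.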

How the data were processed

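DNA methylation was measured by RRBS in 5 libraries, 1 per condition. Per the labels' processing notes the authors used Trim Galore 0.5.0, Bismark 0.20.0 and methylKit 1.10.0 with build hg38, and summed CpG calls over windows of 1000 bases. The deposited table holds counts for the vehicle control, left unscaled, and for the other 4 libraries a score, calls that the authors multiplied by a factor (1.09 to 1.21) and rounded. β-values were deposited as a fraction, methylated over all calls. The source of the gene and CpG annotation is not given in the sources used here. Calls before scaling were recovered from the factors, which returned at least 99.95% of the deposited coverages, and totalled 188844850 to 228919184 per library. The rule on coverage used deposited values. Recovered calls replaced counts in Fisher's exact test, whose p-values were adjusted by Benjamini-Hochberg over 288391 windows, after a check on simulated data. Counting errors are binomial. Starts and upstream sequences came from RefSeq GRCh38.p14, and chromosome 8 starts were not analysed here. No GRCh38 genome was used, so window sequences are not shown.

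The set, the lists and the tests were chosen with earlier results of these data known. Windows named are the 10 lowest, the 3 largest rises and falls per chemical with an adjusted p under 0.01, the 5 widest ranges, the genes with most windows, the longest runs, members of the lists, and those next to the limit. 1 of the longest runs is not reported here. The tRNA, upstream-sequence and other named windows were chosen after their values were seen. The labels name another DNA extraction kit (DNeasy) than the methods do. Analyses used Python 3.11.15 with pandas 2.3.3, scipy 1.17.1 and numba 0.67.0.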

Additional observations from a re-analysis of the deposited data

How the results depend on the processing

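No paired analysis was possible because each condition has 1 library. With a coverage of at least 300 the set held 1782 windows, and the other 7 definitions tried left its size within 1.5 times the 2793 used.

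The difference after 5-aza-dc was negative under every alternative tried, at -1.70 percentage points with a coverage of at least 30, -1.72 with at least 300, -1.12 as the median over windows, -2.30 from pooled calls, -1.36 with a limit of 40% and -1.67 with 60%. That after theophylline was positive under every alternative tried, at 0.5998 with a coverage of at least 30, 0.599 with at least 300, 0.383 as the median and 1.12 in the windows 1 to 5 kb upstream alone. The small differences of etoposide and propyl gallate were less stable: that of etoposide was -0.0620 in introns alone and 0.451 in the windows 1 to 5 kb upstream alone, where it reversed, and that of propyl gallate was -0.321 from pooled calls and reversed to 0.100 in the windows 1 to 5 kb upstream alone. The level-matched gap to promoter and gene windows after 5-aza-dc was 0.638 points by medians.

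Counts of called windows moved with the thresholds. They are given as higher and lower, for etoposide, propyl gallate, theophylline and 5-aza-dc in turn. At 25 points or more they were 1 and 4, 2 and 1, 1 and 1, and 2 and 4, and with any difference 117 and 143, 118 and 157, 163 and 93, and 65 and 324. With calls divided by 2 they were 17 and 14, 16 and 12, 17 and 9, and 7 and 55. With a limit of 40%, which left 2165 windows, they were 33 and 39 for etoposide, 38 and 35 for propyl gallate, 46 higher for theophylline, and 21 and 78 for 5-aza-dc, and with 60%, which gave 3724 windows, 84 lower for propyl gallate and 204 lower for 5-aza-dc. Among the 1715 to 1950 windows per chemical whose share of calls differed by less than 25%, an alternative added after seeing the data, 37 were lower after etoposide, 31 higher after propyl gallate, 25 lower after theophylline, and 21 higher and 72 lower after 5-aza-dc. As a share of the windows the 5-aza-dc falls were then 4.20%, against 4.48% of the whole set, 3.603% with the limit of 40% and 5.48% with 60%. Of the named windows 10 lost their call with calls divided by 2, ESRRB, DNMT3A, KCNA7, CRYL1, EI24 and TCOF1 among them. The 106 other values moved by no more than their counting interval or, for counts, by at most 1.5 times. The differences among them kept their direction. For the level-matched gaps of etoposide and propyl gallate, which lay within counting error, a change of sign was not counted.

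Depth limits a window of 100 calls to coarse values, and 1 library per condition leaves variation between cultures unmeasured. RRBS covers CpG-poor sequence in patches, so widths and neighbours are known for part of the set. The annotation of the table missed some RefSeq starts, and without windows within 1000 bases of a start the 5-aza-dc difference was -1.55 points. Whether a low-methylated window is an enhancer was not tested.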

Other observations

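The share of covered distal windows in the set differed between autosomes, from 82 of 6066 on chromosome 4 (1.35%) to 129 of 4226 on chromosome 19 (3.05%), with 314 of 10897 (2.88%) on chromosome 1. The most frequent names were those of small RNA families with copies on many chromosomes, Y_RNA (26 windows of 1421 on 13 chromosomes) and Metazoa_SRP (7 of 302 on 4 chromosomes), so these names do not stand for 1 locus.

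A further 4 genes with 3 or more low-methylated windows are described, chosen after their values were seen. MIR9-3HG, the host gene of a neural miRNA, had 4 of its 9 covered distal windows in the set, with means from 2.43% to 38.2%, NTNG2, an axon guidance gene, had 4 of 20 from 11.4% to 48.0%, and KCNN3, a potassium channel gene, had 4 of 36 from 31.5% to 46.9%. BCL11A, a zinc finger factor of blood and brain, had 3 of 5 from 7.59% to 44.5%. In the 4 KCNN3 windows the mean β-value was 44.2% in the vehicle control and 33.8% with 5-aza-dc, and in the 4 MIR9-3HG windows 15.7% and 14.98%. The windows near CSRP1 made up all 3 covered distal windows assigned to that gene.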
